A study of Caenorhabditis elegans with 12 samples.

Results

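Collagen genes of the Caenorhabditis elegans cuticle, 10 in all and chosen by name for their roles in furrows, struts and body shape, were followed through 12 whole-worm RNA libraries. All 10 were found among the 46926 rows of the deposited count table. They fall into 3 classes by role: 6 furrow collagens (dpy-2, dpy-3, dpy-7, dpy-8, dpy-9 and dpy-10), 2 strut collagens of the adult cuticle (bli-1 and bli-2) and 2 body-shape collagens (rol-6 and sqt-3). All 10 passed the filter on low counts.

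The cuticle is an exoskeleton that the epidermis secretes anew at each molt, and collagens are its main protein. Furrow collagens line the annular furrows that ring the body, and loss of any of them removes the furrows and shortens the worm (the Dpy, or dumpy, form). The products of bli-1 and bli-2 build the struts that join the layers of the adult cuticle, and their loss blisters it. Altered rol-6 twists the worm into a roller, and sqt-3 encodes a collagen needed for a normal cuticle from the embryo on. In developing worms most of these transcripts pulse once per molting cycle.

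Each of the 3 groups had 4 libraries of poly-A RNA from whole worms, grown from bleached eggs at 20 °C and stated to be at the fourth larval stage. The non-transgenic group was the N2 wild type. The TDP-43 group carried Psnb-1::TDP-43 with the marker Pmyo-2::dsRED, and the TDP-43dNLS group carried Psnb-1::TDP-43(K82A/R83A/K84A), altered in its nuclear localization signal, with the marker Pmyo-3::dsRED. TDP-43 is an RNA-binding protein, mostly nuclear in healthy cells, that aggregates in amyotrophic lateral sclerosis. The snb-1 promoter drives expression across the nervous system, myo-2 in pharyngeal muscle and myo-3 in body wall muscle, and none of them is an epidermal promoter. Whether replicates were grown as separate cultures is not labelled. The p-values below thus reflect the spread among these libraries alone, which may be technical. Total counts ran from 20671982 to 26910097 per library.

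The libraries of every group fell apart in a way that the groups do not explain. A list of 23 oocyte and eggshell genes had a mean level of 2.41 to 4.18 log2 CPM (read counts scaled to a common library size with TMM factors) in 4 libraries: replicate 4 of each group and also replicate 3 of TDP-43dNLS. In the other 8 libraries the same list stood at 8.13 to 9.35 log2 CPM, although oocytes are made by adults and all 12 libraries carry the same larval stage label. The 4 are called the low-oocyte libraries here, and each comparison of the 10 collagens is given with and without them. Fold changes of other gene lists come from the fit of all 12 libraries without covariates, unless stated. Those markers of 6 tissues that were found by name were detected in all libraries, except nhr-73 of the epidermis and seam list. That gene had 0 counts in at least 1 library. Of the 10 genes on that list 9 were found, and bus-8 had no row under its name. Summed germ line markers ran from 98.9 to 309.9 CPM in the low-oocyte libraries and from 516 to 1192 in the others. Summed intestine markers ran from 493 to 1180 and from 2136 to 4415 CPM in the same order. Body wall muscle markers ran from 12520 to 19500 and from 6911 to 11830, pharynx from 869 to 1746 and from 241 to 1099, and neurons from 438 to 492 and from 242 to 363 CPM.

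The genes lie on chromosomes II, IV, V and X of the WBcel235 build. On chromosome II are dpy-2 (WBGene00001064, 6714292 to 6715971), dpy-10 (WBGene00001072, 6710149 to 6712227), bli-1 (WBGene00000251, 10708960 to 10712156), bli-2 (WBGene00000252, 5651394 to 5652434) and rol-6 (WBGene00004397, 8733050 to 8734239). On chromosome X are dpy-3 (WBGene00001065, 2144605 to 2145647), dpy-7 (WBGene00001069, 7536467 to 7537792) and dpy-8 (WBGene00001070, 5148804 to 5150476). Chromosome IV holds dpy-9 (WBGene00001071, 257403 to 259204), and chromosome V holds sqt-3 (WBGene00005018, 12352745 to 12354320). The neighbours dpy-2 and dpy-10 lie on opposite strands. Of the 10, 5 overlap another annotated gene. The exons of dpy-10 share 780 bases with T14B4.19, and those of sqt-3 share 144 bases with F23H12.13, but each of these partners had 0 counts in every library. The exons of dpy-8 share 109 bases with C31H2.14, which stayed between 0.715 and 4.95 CPM. Those of bli-1 share 7 bases with dph-2 (15.1 to 35.5 CPM), and bli-2 overlaps zyg-1 without sharing an exonic base.

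Levels of all 10 genes varied far more between libraries of a strain than between strains. TDP-43 replicate 4 was the highest library and wild type replicate 3 the lowest for 10 of the 10 genes. The spread from lowest to highest ran from 30.7-fold for bli-2 to 137-fold for dpy-2. Even the lowest value, dpy-2 in wild type replicate 3, rested on 27 counts. The 10 genes together took 0.00748% to 0.103% of all counts in the 8 libraries rich in oocyte transcripts and 0.238% to 0.374% in the low-oocyte libraries. In whole worms, fewer epidermal cells and less RNA per cell cannot be told apart.

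Among the furrow collagens, dpy-7 had 53, 16.8, 3.24 and 146 CPM in wild type replicates 1 to 4. It had 30.7, 10.02, 17.1 and 240 CPM in TDP-43, and 8.54, 8.71, 118 and 149 CPM in TDP-43dNLS. The 4 low-oocyte libraries were thus the 4 highest, and each group spanned low and high values, so all groups overlapped. The widest spread was that of dpy-2, with 40, 12.9, 1.41 and 121 CPM in wild type. Its TDP-43 libraries stood at 20.96, 6.88, 8.05 and 194 CPM, and its TDP-43dNLS libraries at 4.58, 7.65, 117 and 108 CPM. Again the same 4 libraries stood above 100 CPM and the other 8 at or below 40 CPM.

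The remaining furrow collagens followed the same order. In the low-oocyte libraries dpy-3 ran from 88.2 to 173 CPM, dpy-8 from 143 to 230, dpy-9 from 142 to 244 and dpy-10 from 98.2 to 166. In the other 8 libraries they ran from 2.62 to 32.9, from 3.61 to 55.7, from 3.45 to 40.8 and from 4.13 to 26.6 CPM. The ranges of the 2 sets of libraries did not touch for any of the 6 furrow collagens. Of all 16637 genes tested, 22.3% were likewise higher in all 4 low-oocyte libraries than in any other, and 24.6% were lower in all 4. Within a library the 6 log2 levels lay within 0.551 to 1.55 of each other, against a range of 1.56 to 7.68 for their mean across libraries.

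The shape collagens moved with the furrow collagens. In wild type rol-6 had 109.6, 40.7, 8.37 and 312 CPM, in TDP-43 94.4, 35.8, 48.04 and 610.1, and in TDP-43dNLS 35.7, 28.4, 379 and 337. The most abundant of the 10, sqt-3, had 348, 118.7, 32.9 and 1027 CPM in wild type. Its TDP-43 libraries had 255, 89.96, 119.5 and 1382 CPM, and its TDP-43dNLS libraries 81.7, 66.97, 1004 and 759 CPM. Both genes were again highest in the 4 low-oocyte libraries, without overlap with the other 8, which makes 8 of the 10 collagens beside 22.3% of all genes. On the log2 scale the mean of rol-6 and sqt-3 exceeded the furrow mean by 2.04 to 2.64 in every library, so the ratio of the 2 classes stayed nearly fixed while both changed manyfold.

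**Figure D1:**
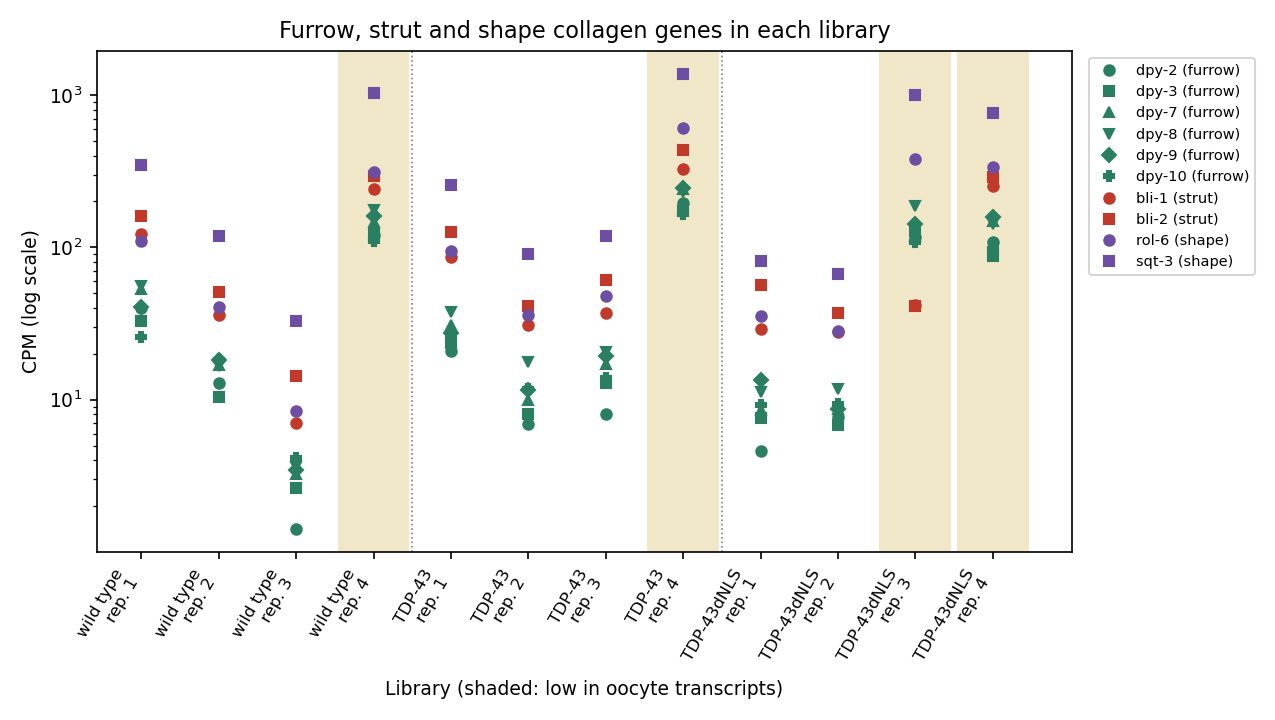
CPM of the 10 collagen genes (log axis) in each of the 12 libraries, 1 point per gene and library, coloured by class, with the 4 low-oocyte libraries shaded. The green furrow and purple shape genes are highest in the 4 shaded libraries, while the red strut genes are high in 3 of them and stand near 42 CPM in TDP-43dNLS replicate 3.

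The strut collagens departed from this order in 1 library. In wild type bli-1 had 121.5, 35.9, 7.01 and 243 CPM, and in TDP-43 it had 86.6, 30.8, 37.2 and 326. In TDP-43dNLS it had 29.2, 27.9, 41.9 and 254 CPM. The gene was thus high in 3 of the 4 low-oocyte libraries, and in TDP-43dNLS replicate 3 it stood within the range of the 8 others.

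The partner gene bli-2 did the same, with 160.3, 50.5, 14.2 and 294 CPM in the wild type libraries. Those of TDP-43 had 125, 41.05, 61.01 and 436.5 CPM. Its TDP-43dNLS libraries had 56.3, 37.02, 41.4 and 289 CPM. The mean log2 level of bli-1 and bli-2 exceeded that of the furrow collagens by 0.877 to 2.23 in 11 libraries (1.6 ± 0.43, SD, n = 11). These 11 were not alike. The difference was 0.96 in wild type replicate 4, 0.877 in TDP-43 replicate 4 and 1.16 in TDP-43dNLS replicate 4. In the 8 libraries rich in oocyte transcripts it was 1.49 to 2.23. In TDP-43dNLS replicate 3 this difference was -1.66. That library had furrow collagens at 7.04 log2 CPM, close to wild type replicate 4 (7.1) and TDP-43dNLS replicate 4 (6.92).

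Other genes of the adult cuticle were also low in TDP-43dNLS replicate 3. The adult collagen gene col-19 stood at 1.24 CPM there, against 34.9, 43.6 and 481 CPM in the other low-oocyte libraries and 1569 to 3314 CPM in the 8 others. The collagen gene bli-6, whose mutants also blister, was at 53 CPM there and at 105.6 to 892 CPM in the 11 others. This library had the lowest oocyte list level (2.41 log2 CPM) and the lowest germ line marker sum of all 12. The part of these differences in the strut levels was not tested.

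How alike the profiles were can be stated by the root mean square difference between log2 profiles over the 12 libraries, each centred on its own mean. Among the 28 pairs of furrow and shape collagens it ran from 0.176 to 0.592 (median 0.282). It was 0.283 between bli-1 and bli-2. Between a strut collagen and one of the other 8 genes it was larger, at 0.837 to 1.28 (median 1, 16 pairs). Without TDP-43dNLS replicate 3 the median of those 16 pairs was 0.412, beside 0.292 for the 28 pairs.

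Genes closest to the mean furrow profile among 9285 others with a mean of at least 10 CPM were cuti-1, lpr-5, noah-2, wrt-1 and mlt-9. Their differences from it were 0.134, 0.149, 0.167, 0.168 and 0.171. The lipocalin-related gene lpr-5 and the zona pellucida domain gene noah-2 encode parts of the apical matrix laid down before the cuticle, wrt-1 is a hedgehog-related gene and mlt-9 is needed for molting. In TDP-43dNLS replicate 3, 4 of these 5 stood within the range of the other low-oocyte libraries, for example noah-2 at 354 CPM against 297.5 to 454. The exception was cuti-1, at 55.5 CPM against 61.3 to 100. The choice of these 5 by likeness over all 12 libraries largely fixed their levels in that library.

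Closest to the mean strut profile were F58E6.13 (0.296), col-79 (0.345), E01G4.6 (0.389), col-110 (0.418) and wrt-6 (0.47), and col-79 and col-110 encode further cuticle collagens. All 5 were lower in TDP-43dNLS replicate 3 than in any other low-oocyte library, which their choice by likeness over all 12 libraries largely fixed. There col-79 stood at 17.9 CPM against 63 to 93.5, and E01G4.6 at 61.2 CPM against 608 to 743.

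**Figure D2:**
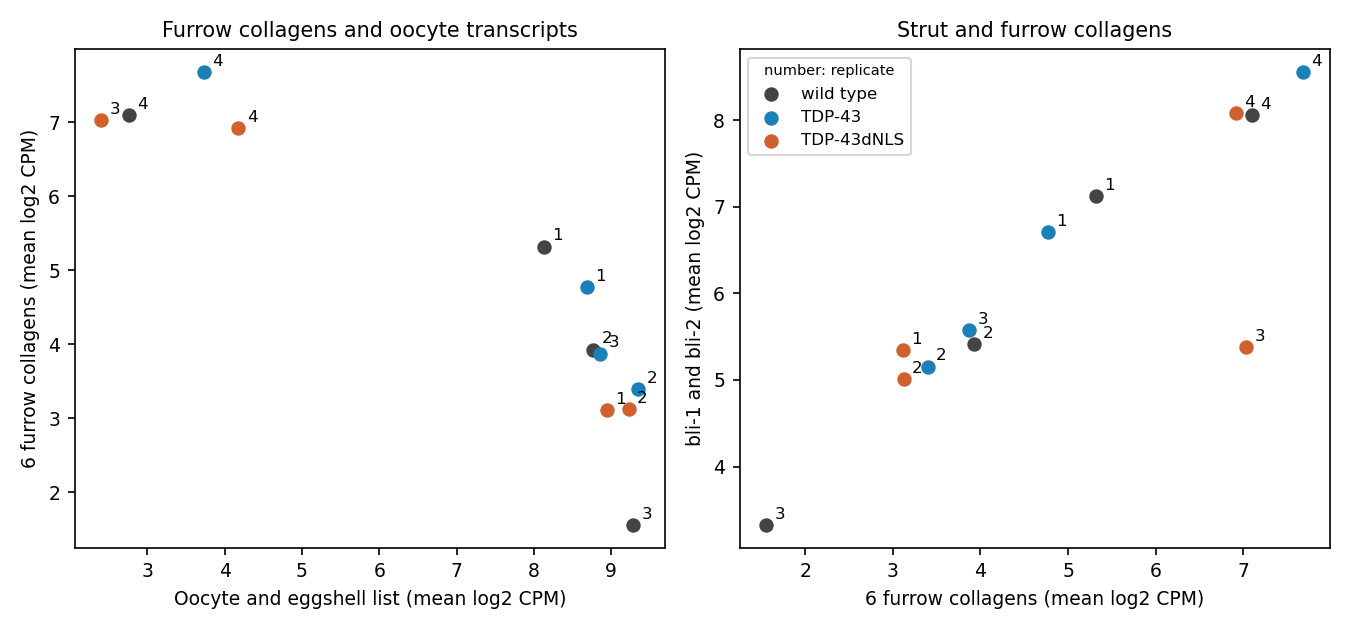
Each point is 1 library, coloured by strain and numbered by replicate. Left, mean log2 CPM of the 6 furrow collagens against that of the oocyte and eggshell list, with furrow levels of 6.92 to 7.68 in the 4 low-oocyte libraries and 1.56 to 5.32 in the others. Right, mean log2 CPM of bli-1 and bli-2 against that of the furrow collagens, with TDP-43dNLS replicate 3 lying below the band formed by the other 11.

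The 8 libraries rich in oocyte transcripts also differed among themselves. Wild type replicate 1, with the lowest oocyte level of the 8 (8.13 log2 CPM), had the highest furrow level (5.32 log2 CPM). Next in both was TDP-43 replicate 1, at 8.69 and 4.77 log2 CPM. Wild type replicate 3 was at the other end, with an oocyte level of 9.29 and a furrow level of 1.56, and TDP-43 replicate 2, with the highest oocyte level of all (9.35), had a furrow level of 3.4. Summed over the 8 of 10 epidermis and seam markers that passed the filter, levels were 159 to 199 CPM in these 8 libraries and 237 to 289 CPM in the low-oocyte libraries, a far narrower range than that of the collagens. The marker nhr-25 is also on the molting and epidermal timing list described below. This marker ran from 3.45 to 7.7 CPM in these 8 libraries and from 36.45 to 57.5 CPM in the low-oocyte libraries. The part of the epidermal share in the collagen levels was not tested.

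Compared per kilobase of exon, sqt-3 was the most abundant, and dpy-2 had the lowest mean on the log2 scale, whereas dpy-10 had the lowest mean on the linear scale (31.5 against 40.5 CPM per kilobase for dpy-2). Mean log2 CPM per kilobase was 7.34 for sqt-3, 6.39 for bli-2, 6.29 for rol-6, 4.97 for dpy-9, 4.74 for dpy-7, 4.61 for dpy-8, 4.61 for dpy-3, 4.31 for bli-1, 4.08 for dpy-10 and 4.01 for dpy-2. The step from sqt-3 to bli-2 (0.94 ± 1.04, SD over libraries, n = 12) held in 12 of 12 libraries, as did that from rol-6 to dpy-9 (1.32 ± 0.25). All other neighbours in this order changed places in some libraries, and their mean steps were below the SD of the step. The levels of dpy-8 and dpy-3 differed by 0.0041 ± 0.18. Per length, bli-2 exceeded its partner bli-1 in mean level, at 135 against 34.3 CPM per kilobase.

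**Figure D3:**
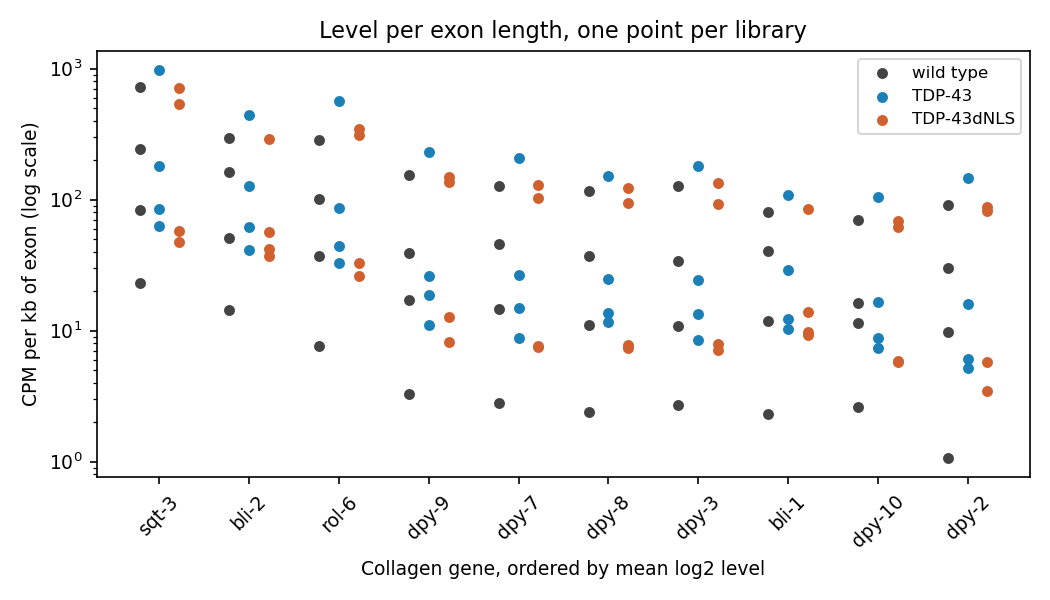
CPM per kilobase of annotated exon (log axis) for each gene, ordered by mean log2 level, with 1 point per library and colours for the strains. The points of the 3 strains interleave for every gene, and sqt-3 spans 23.1 to 972 CPM per kilobase.

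TDP-43 against wild type, the comparison of the unaltered protein with N2, called none of the 10 collagens. Log2 fold changes were positive for 10 of 10, from 0.24 for bli-1 to 0.74 for rol-6, with a median of 0.38 beside 0.02 over all 16637 genes tested. Standard errors of 1 to 1.41 exceeded every one of these values. For dpy-7 the mean was 74.5 ± 111 CPM in TDP-43 and 54.8 ± 64.4 in wild type (SD, n = 4), and its log2 fold change was 0.44 with a 95% interval of -2.39 to 3.28.

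The smallest unadjusted p of the 10 was 0.55 and the smallest adjusted p was 1 in edgeR's quasi-likelihood test. None passed in DESeq2 or limma voom, and 0 were under an unadjusted p of 0.05. Over all genes 1 was called (0.00601%), 304 lay below 0.05 before adjustment, and DESeq2's count was 21. The libraries of these groups overlapped for all 10 collagens (0 of 10 apart, beside 1.65% of all genes). With a block for replicate number in a fit of these groups alone, 22 genes were called, again none of the 10, whose log2 fold changes were 0.22 to 0.72. With the block in the fit of all 12 libraries 0 genes (0%) were called. Summed epidermis and seam markers were 159 to 237 CPM in wild type, 173 to 266 in TDP-43 and 179 to 289 in TDP-43dNLS, and their part in the comparisons was not tested. Without TDP-43 replicate 4 all 10 fold changes were negative (dpy-2 at -1.87), and without wild type replicate 4 all 10 were larger (dpy-2 at 1.67).

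Setting aside the split between libraries narrowed the intervals and left the genes near 0. A 2-level term for the low-oocyte libraries, defined from expression and not part of the designed test, gave log2 fold changes from -0.33 (dpy-2) to 0.35 (rol-6), with a median of 0.07. For dpy-7 it gave -0.12, with a 95% interval of -1.53 to 1.3, so changes of over 2-fold in either direction remained within reach of the data. With that term 16 genes were called in all (0.0962%) and 0 of the 10. Without the 4 low-oocyte libraries the range was -0.56 to 0.2, again with 0 of the 10 called while 0.0535% of all genes were. The 3 libraries left in each group overlapped for all 10 genes, where 12.1% of all genes did not overlap.

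TDP-43dNLS against wild type gave furrow and shape collagens opposite signs with and without the split between libraries. It gave no calls. In the designed fit the 6 furrow and 2 shape collagens had positive log2 fold changes, from 0.32 for sqt-3 to 0.73 for rol-6. The 2 strut collagens had negative ones, at -0.21 ± 1.09 for bli-1 and -0.29 ± 1 for bli-2 (SE). The smallest adjusted p was 1 in edgeR's quasi-likelihood test, 0 of the 10 had an unadjusted p under 0.05, and DESeq2 and limma voom called none. Over all genes 0 were called (0%) by edgeR, with 241 at an unadjusted p under 0.05, and 16 by DESeq2. The libraries overlapped for all 10 collagens (0 of 10 apart, beside 1.32% of all genes, and 16.1% without the low-oocyte libraries). The TDP-43dNLS group held 2 of the 4 low-oocyte libraries and each other group 1.

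With the 2-level term all 10 log2 fold changes were negative, from -1.12 ± 0.78 for dpy-2 to -0.44 ± 0.62 for rol-6 (SE), with a median of -0.77 beside 0.01 over all genes. None passed: the smallest unadjusted p was 0.155, for dpy-7, and the smallest adjusted p was 0.919 in edgeR, while 0.0541% of all genes were called. Without the low-oocyte libraries all 10 were again negative, from -1.55 to -0.65, with 0 of the 10 and 0.0357% of all genes called. In the libraries rich in oocyte transcripts dpy-7 stood at 8.54 and 8.71 CPM in TDP-43dNLS, within the wild type span of 3.24 to 53 CPM. The 10 genes move together between libraries, so their common sign is not 10 independent observations.

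TDP-43dNLS against TDP-43 compared the strains directly. Log2 fold changes of the furrow and shape collagens lay between -0.07 and 0.2 in the designed fit, and those of bli-1 and bli-2 at -0.44 and -0.65. None was called, with a smallest adjusted p of 0.998 in edgeR and none past in DESeq2 or limma voom. Over all genes edgeR called 0 (0%), beside 427 with an unadjusted p below 0.05 and 8 calls by DESeq2. The libraries of both strains overlapped for all 10 collagens (0 of 10 apart, beside 1.77% of all genes). Without TDP-43 replicate 4 all 10 were positive, up to 2.31 for dpy-2.

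With the 2-level term all 10 were negative in this comparison too, from -0.95 to -0.72, and none was called (smallest adjusted p 1 in edgeR, 0.00601% of all genes called). Leaving out the low-oocyte libraries left 2 TDP-43dNLS and 3 TDP-43 libraries. Both TDP-43dNLS libraries then lay below all 3 TDP-43 libraries for 7 of the 10 genes, dpy-2, dpy-9 and bli-2 being the exceptions. Of all genes, 19.1% did not overlap in these libraries, counting both directions, and the share lower in TDP-43dNLS alone was not computed. For the 10, edgeR's smallest adjusted p was 1. For rol-6 the gap was as small as 35.7 against 35.8 CPM. The 3 comparisons share libraries pairwise, so their signs are not independent.

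**Figure D4:**
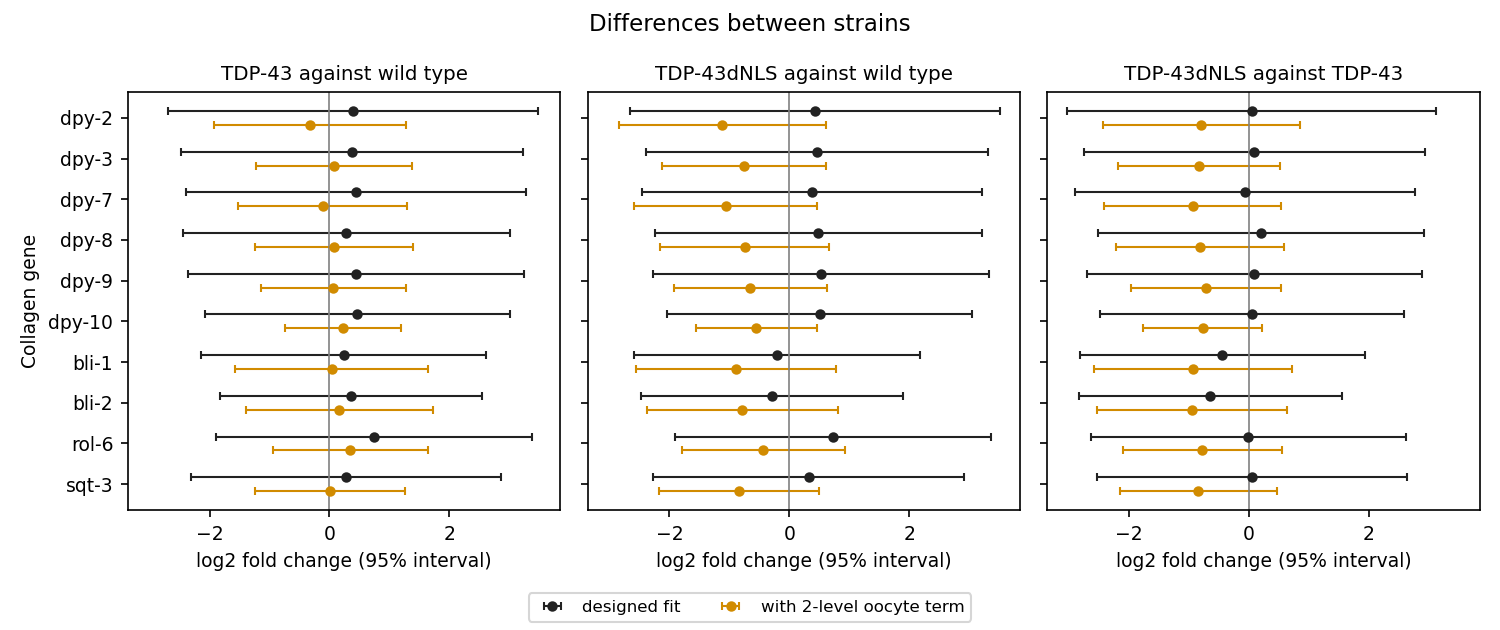
Log2 fold change of each collagen gene with its 95% interval in the 3 comparisons, in the designed edgeR fit (black) and with the 2-level term for the low-oocyte libraries (orange). Every interval includes 0, and in both comparisons of TDP-43dNLS the orange points lie left of 0 for all 10 genes.

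Among 11 other shape collagens, 7 shared the furrow pattern. The genes dpy-4, dpy-5, dpy-13, sqt-1, sqt-2, rol-8 and lon-3 were higher in all 4 low-oocyte libraries than in any other, as 8 of the 10 collagens above were and as 22.3% of all genes tested were. The nearest to the furrow profile was sqt-2, at a root mean square difference of 0.236. In contrast, dpy-14, dpy-17 and col-19 were lower in all 4, as 24.6% of all genes were, and bli-6 was neither. For dpy-14 this rested on levels near 0, at 0 to 0.251 CPM against 0.27 to 11.6 CPM in the others. The collagen gene dpy-17 ran from 0.52 to 4.88 CPM in the low-oocyte libraries and from 5.58 to 15.5 in the others. None of the 11 was called in any of the 3 comparisons. In TDP-43dNLS against wild type the lowest p belonged to dpy-17, with means of 3.8 ± 3.33 and 8.14 ± 5.02 CPM (SD, n = 4; log2 fold change -1.1 ± 0.7 SE, edgeR adjusted p 1), then to dpy-14 and bli-6. In TDP-43 the lowest p belonged to dpy-14, at 1.55 ± 1.38 beside 3.85 ± 5.37 CPM, then dpy-17 and dpy-5, all with an adjusted p of 1 in edgeR.

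Of 14 genes for collagen modification, cleavage and cross-linking, 9 were higher in all 4 low-oocyte libraries than in the rest (22.3% of all genes) and 1, phy-3, was lower (24.6% of all genes). The prolyl 4-hydroxylase gene dpy-18 ran from 176 to 296 CPM in the low-oocyte libraries and from 40.8 to 155 in the others. Its partner subunit gene pdi-2 ran from 1069 to 1987 and from 361.5 to 919 CPM. The gene bli-4, for a furin-like protease that trims collagens, stayed between 234.5 and 313 CPM in all 12 libraries. None of the 14 was called in any comparison. By lowest p the named genes were tsp-15, bli-3 and pdi-1 in TDP-43 and dpy-31, bli-4 and dpy-11 in TDP-43dNLS, and their log2 fold changes lay between -0.56 and 0.35. The largest of them was tsp-15, the tetraspanin of the bli-3 oxidase complex, at -0.56 ± 0.53 (edgeR adjusted p 1).

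The molting and epidermal timing list showed the pattern most fully, with 21 of 22 genes higher in all 4 low-oocyte libraries, beside 22.3% of all genes. The zinc finger gene blmp-1 stood at 81.7 to 100.2 CPM there and at 8.53 to 29.8 in the others, and the period-like gene lin-42 at 390.1 to 467 and 20.3 to 169 CPM. The exception was nhr-23, the nuclear receptor gene that drives molting cycles, at 45.1 to 54.2 CPM in the low-oocyte libraries and 29.2 to 57.3 in the others. None of the 22 was called in any comparison. The lowest p of the list was that of nhr-23, whose means were 49.3 ± 6.65 CPM under TDP-43 and 34.7 ± 8.12 CPM without a transgene (SD, n = 4). Its log2 fold change was 0.51 ± 0.25 with an adjusted p of 1, and 0.53 ± 0.16 with 0.564 after the 2-level term was added (edgeR). The others named by the same rule were nas-37 and lrp-1 in TDP-43 and nhr-85 and nhr-25 in TDP-43dNLS, each with an adjusted p of 1 in edgeR.

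Loss of furrow collagens is known to induce antimicrobial peptide, osmolyte and detoxification genes, and 10 of these were followed. None was called in any comparison. Of the 10, 3 (nlp-30, nlp-31 and nlp-34) were higher in all 4 low-oocyte libraries than in the others, near the 22.3% of all genes, and 0 were lower in all 4, beside 24.6% of all genes. The antimicrobial peptide gene nlp-29 stayed between 42.6 and 71.5 CPM in all 12 libraries. Wild type averaged 46.5 ± 4.69 CPM and TDP-43dNLS 60.1 ± 10.1 CPM (SD, n = 4), a log2 fold change of 0.37 ± 0.22 SE (edgeR adjusted p 1). The glycerol synthesis gene gpdh-1 ran from 28.01 to 56.2 CPM in 11 libraries and stood at 7.4 CPM in TDP-43 replicate 4. The 10 collagens were highest in that library. In the other low-oocyte libraries gpdh-1 had 42.55 (wild type replicate 4), 38.3 and 32.2 CPM (TDP-43dNLS replicates 3 and 4). By lowest p the rule named nlp-34, nlp-30 and nlp-29 in TDP-43 and nlp-29, nlp-31 and hmit-1.1 in TDP-43dNLS, each with an adjusted p of 1 in edgeR. With the 2-level term again none was called. Then 3 of the 10 had an unadjusted edgeR p under 0.05 in TDP-43dNLS against wild type (5.2% of all genes). Of these, nlp-29 stood at 0.395 ± 0.171 and hmit-1.1 at -0.607 ± 0.276 (SE). The count was 0 in TDP-43 against wild type (6.28%) and 2 in TDP-43dNLS against TDP-43 (4.41%).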

How the data were processed

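Raw read counts of 12 libraries were deposited by the authors in a single gene table, whose columns were matched to samples by library name. Per the submitters' processing notes, WBcel235, STAR, R 4.4.2 and featureCounts 2.20.0 were used. Annotation release, strandedness and multimapping rules: not given in the sources used here, so reads of overlapping genes may sit with either partner. Names, coordinates and exon lengths came from Ensembl release 115 (WBcel235).

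Counts were analysed in R 4.3.3. filterByExpr (minimum count 10) left 16637 genes holding 99.9% of counts, which were scaled with TMM. All 12 libraries entered 1 robust quasi-likelihood fit in edgeR 4.0.16 without covariates, and p-values were adjusted over all genes (Benjamini-Hochberg, threshold 0.05). Standard errors come from the log2 fold change and its F statistic. Alternatives used DESeq2 1.42.0, limma 3.58.1, other filters, a replicate block, the 2-level oocyte term (mean list level under 6 log2 CPM) and leaving libraries out. Of the fits, only the edgeR fit without covariates was run on simulated counts, and only for TDP-43 against wild type. The simulated counts held no split between libraries.

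The 10 genes, the lists, the term and the tests were chosen with earlier results of these data known. From each of the 4 lists (other shape collagens, enzymes, molting and timing, furrow-loss genes) the 3 genes with the lowest p against wild type were named, with the 5 genes nearest each profile. Of the 10 epidermis and seam markers, 9 were found. Sequences were not analysed here, and a planned promoter search was not run.

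Replicate numbers recur across groups. Deviations of same-numbered libraries correlated at 0.221 to 0.794 for all 4 pairs of TDP-43 and wild type, which meets the rule for pairing. Replicate 4 was the low-oocyte library of both groups, so a pairing and the split between libraries cannot be told apart in these values. Over the pairs with TDP-43dNLS the correlations were -0.559 to 0.695, which does not meet the rule. The negative values were those of TDP-43dNLS replicate 3, a low-oocyte library, with wild type (-0.559) and with TDP-43 (-0.495). Other pairs with TDP-43dNLS ran from 0.293 to 0.695. The labels give no reason for a pairing.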

Additional observations from a re-analysis of the deposited data

Results flagged for a closer look

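In groups of 4, a library was marked when its gap to the nearest other took up more of the group's CPM range than Dixon's 95% critical value allows. This held for 10 of the 30 combinations of gene and group, where chance marks about 1 in 20 if values are normal. Over all tested genes 8.45% of combinations were marked (15.4% for the TDP-43 group, 7.25% for wild type and 2.68% for TDP-43dNLS). On the log2 scale, tried after seeing the data, 0 of the 30 were marked (highest ratio 0.816) beside 8.47% over all genes, so each mark below holds for the CPM scale alone. In TDP-43, replicate 4 stood far above the other libraries for 8 genes, with ratios of 0.925 (dpy-2), 0.907 (dpy-3), 0.91 (dpy-7), 0.906 (dpy-8), 0.932 (dpy-9), 0.904 (dpy-10), 0.898 (rol-6) and 0.872 (sqt-3). In TDP-43dNLS, replicate 4 stood far above the others for the strut collagens, with 0.938 (bli-1) and 0.924 (bli-2), while replicate 3, the other low-oocyte library of that group, had 41.9 and 41.4 CPM. None was marked in wild type, where replicate 1 lay between replicate 4 and the rest. The 10 genes move together between libraries, so these are few independent observations.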

How the results depend on the processing

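No alternative called any of the 10 genes in any comparison. DESeq2 size factors, fits of only the groups compared and the DESeq2 test changed no sign of a collagen. As no collagen passed, every change below is a change of sign of an uncalled log2 fold change, and the cause was not tested. With the 2-level oocyte term these were in TDP-43 against wild type dpy-2 -0.33, dpy-7 -0.12, and in TDP-43dNLS against wild type dpy-2 -1.12, dpy-3 -0.76, dpy-7 -1.06, dpy-8 -0.75, dpy-9 -0.65, dpy-10 -0.55, rol-6 -0.44, sqt-3 -0.83, and in TDP-43dNLS against TDP-43 dpy-2 -0.79, dpy-3 -0.83, dpy-8 -0.82, dpy-9 -0.72, dpy-10 -0.78, sqt-3 -0.84. Without the low-oocyte libraries these were in TDP-43 against wild type dpy-2 -0.56, dpy-3 -0.00802, dpy-7 -0.29, dpy-9 -0.057, bli-1 -0.051, sqt-3 -0.067, and in TDP-43dNLS against wild type dpy-2 -1.55, dpy-3 -1.04, dpy-7 -1.47, dpy-8 -1.11, dpy-9 -0.88, dpy-10 -0.77, rol-6 -0.69, sqt-3 -1.13, and in TDP-43dNLS against TDP-43 dpy-2 -0.99, dpy-3 -1.04, dpy-8 -1.14, dpy-9 -0.82, dpy-10 -0.92, sqt-3 -1.06. With the replicate block these were in TDP-43 against wild type dpy-2 -0.31, dpy-3 -0.0091, dpy-7 -0.16, dpy-9 -0.071, sqt-3 -0.043, and in TDP-43dNLS against TDP-43 dpy-7 0.41, rol-6 0.42. With the replicate block and the 2-level term together these were in TDP-43dNLS against wild type dpy-2 -0.99, dpy-3 -0.79, dpy-7 -0.88, dpy-8 -0.75, dpy-9 -0.65, dpy-10 -0.68, rol-6 -0.44, sqt-3 -0.88, and in TDP-43dNLS against TDP-43 dpy-2 -1.14, dpy-3 -1.18, dpy-8 -1.22, dpy-9 -0.996, dpy-10 -1.08, sqt-3 -1.19. With the replicate block in fits of only the groups compared (added after seeing the data) these were in TDP-43dNLS against wild type dpy-2 -0.15, dpy-3 -0.017, dpy-7 -0.086, sqt-3 -0.12, and in TDP-43dNLS against TDP-43 dpy-2 -0.00067, dpy-3 -0.094, dpy-8 -0.17, dpy-10 -0.082, sqt-3 -0.16. In limma voom these were in TDP-43dNLS against TDP-43 dpy-7 0.0303, rol-6 0.12. With no filter these were in TDP-43dNLS against TDP-43 rol-6 0.021. With the stricter filter (10 CPM in 4 libraries) these were in TDP-43dNLS against TDP-43 rol-6 0.036. Leaving out 1 library at a time, TDP-43 against wild type ranged dpy-2 -1.87 to 1.67, dpy-3 -1.50 to 1.82, dpy-7 -1.51 to 1.61, dpy-8 -1.32 to 1.59, dpy-9 -1.51 to 1.86, dpy-10 -1.19 to 1.77, bli-1 -0.98 to 1.13, bli-2 -0.77 to 1.14, rol-6 -0.98 to 1.90, sqt-3 -1.30 to 1.47. Leaving out 1 library at a time, TDP-43dNLS against wild type ranged dpy-2 -0.13 to 1.71, dpy-3 -0.29 to 1.91, dpy-7 -0.28 to 1.55, dpy-8 -0.19 to 1.79, dpy-9 -0.025 to 1.95, dpy-10 -0.0301 to 1.81, bli-1 -1.63 to 0.69, bli-2 -1.53 to 0.49, sqt-3 -0.34 to 1.52. Leaving out 1 library at a time, TDP-43dNLS against TDP-43 ranged dpy-2 -0.52 to 2.31, dpy-3 -0.66 to 1.96, dpy-7 -0.72 to 1.88, dpy-8 -0.47 to 1.80, dpy-9 -0.47 to 2.04, dpy-10 -0.49 to 1.69, bli-1 -1.86 to 0.77, bli-2 -1.89 to 0.48, rol-6 -0.56 to 1.71, sqt-3 -0.61 to 1.62. The extremes came from leaving out one of the 4 low-oocyte libraries. The count over all genes in TDP-43 against wild type was 1 as designed, 0 with the stricter filter and with the replicate block, 21 in DESeq2, 16 with the 2-level term, 19 with block and term, 9 without the low-oocyte libraries, 22 in the block fit of those groups alone, and 0 to 1 with 1 library left out. In TDP-43dNLS against wild type it was 0 as designed, 16 in DESeq2, 9 with the term, 6 with block and term and 6 without the low-oocyte libraries. In TDP-43dNLS against TDP-43 it was 0 as designed, 8 in DESeq2 and 1 with the term, alone or with the block. The block changed no call among the 10 genes. Over all 12 libraries, 4 correlated best with a library of their own number. Each of the 10 genes had at least 27 counts in every library.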
